A study of Mus musculus with 18 samples.

Results

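The partially reprogrammed induced pluripotent stem (iPS) line EOS3F-24 was compared with J1, a mouse embryonic stem (ES) cell line. The comparison used 6 of the 18 arrays of the study, namely the 3 arrays titled EOS3F-24 without 2i and the 3 arrays titled J1 ESCs. The study also profiled the same line converted with 2i, which combined 2 μM of a MEK inhibitor and 12 μM of a GSK inhibitor, the fully reprogrammed lines EOS3F-28 and EOS3F-29, and the CD1 mouse embryonic fibroblasts (MEFs) from which the iPS lines had been made. According to the labels, the partial line carried pMX retroviruses for Oct4, Klf4 and Sox2, was kept on arrested feeder cells with LIF and was selected in puromycin at 1 μg/mL. J1 cells likewise grew with LIF over arrested feeders, and neither virus nor puromycin is listed for them. Puromycin at 1 μg/mL is also listed for the 2i converted, EOS3F-28 and EOS3F-29 arrays, and none for the MEF arrays. Each side of the comparison is a single line, so reprogramming state, genetic background, virus, selection and the history of the line cannot be told apart. The labels do not say whether the 3 arrays of a line came from separate cultures. The p-values therefore rest on array-to-array spread alone, and that spread may be technical. It is pooled over the arrays of all 6 groups, so a standard error can differ from the spread within the lines compared.

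Mouse ES cells are held in a self-renewing state by LIF, which signals through STAT3, and by a network of transcription factors around Oct4, Sox2 and Nanog. Factors such as Esrrb, Tfcp2l1, Klf2 and Zfp42 mark its ground, or naive, form. Partially reprogrammed lines are colonies that grow like ES cells while they depend on the introduced factors and have not switched on the network from their own genes. In such mixtures of cells on feeders, fewer cells of a type and less RNA per cell cannot be told apart.

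All values are log2 array values for 1 probe set per gene, the brightest over the 18 arrays, and differences are partial iPS cells minus J1 cells with their standard error (SE). Array medians lay between 3.92 and 4.11, so values of about 3 to 4 are near the background of the arrays, and a fold against such a value is a ratio to background signal. Precision is set by having 3 arrays per line and by a spread pooled over all 6 groups. Over genes, the partial iPS arrays correlated with each other at 0.984 to 0.992, the J1 arrays at 0.972 to 0.989, and partial iPS with J1 arrays at 0.925 to 0.947. J1 replicate 2 lay at -0.13 to -0.04 relative to the J1 mean in the median gene of each chromosome. Of 11 housekeeping genes 2 rose and 3 fell, none of them by 2-fold, with a median of -0.01. The count of falls was 1 without partial replicate 1 or J1 replicate 2, and 0 without J1 replicate 3. The rise of Ywhaz and the fall of Ppia were at probe sets whose 10 nearest named probe sets by number all belong to genes of another chromosome. The other probe set of Ywhaz was also called, at 0.39 (limma adjusted p = 0.0452), whereas no other probe set of Ppia was called.

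Of 19937 genes, 4571 were called at a limma adjusted p under 0.05 (22.9%). The calls split into 2647 genes higher in the partial line (13.3%) and 1924 genes lower (9.65%), and the median gene differed by -0.03. At least a 2-fold change was reached by 631 of the genes that rose and 462 of those that fell. The 15 largest rises and falls named below were picked with no overlap of arrays as a condition, so non-overlap is no support for them. Among the 631 genes that rose 2-fold, 346 had a mean under 5 in J1 cells, and among the 462 that fell, 318 had a mean under 5 in the partial line, while 63.0% of all genes had a mean under 5 in J1 cells. A 16-fold change was reached by 12 genes that rose and 11 that fell. Counts of list members called, given below, are to be read beside the shares of all genes, 13.3% higher and 9.65% lower.

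**Figure D1:**
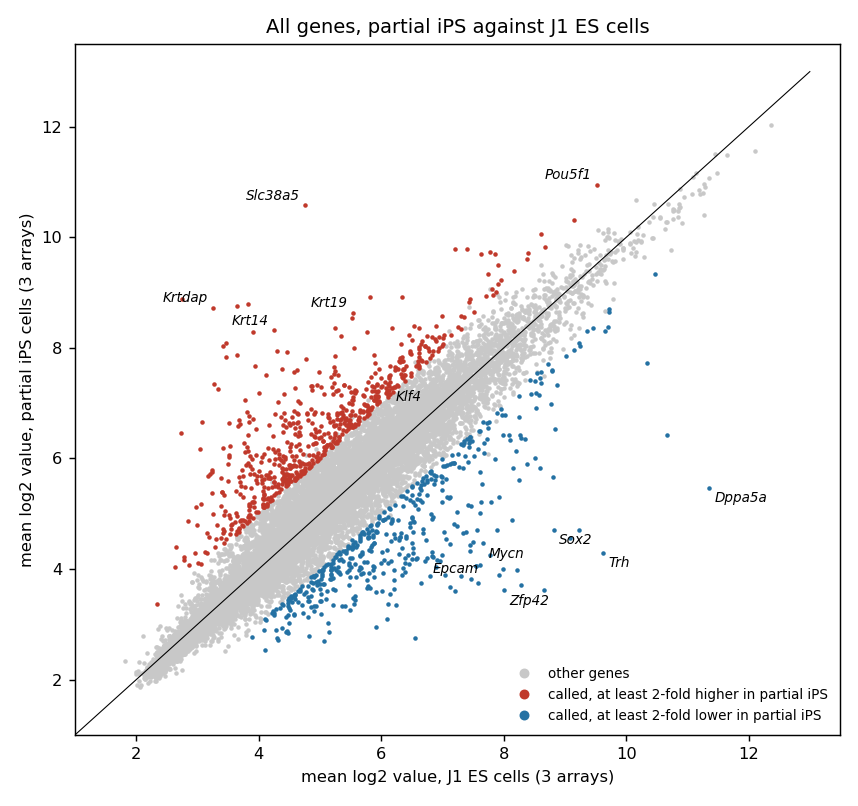
Mean log2 value of each gene in partial iPS cells (vertical axis) against its mean in J1 ES cells (horizontal axis), 3 arrays each, with the line of equal values. Red points are the 631 genes called at least 2-fold higher in the partial line and blue points the 462 called at least 2-fold lower; Slc38a5 and Krtdap stand far above the line, and Dppa5a, Trh and Sox2 far below it.

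The introduced factors did not stand alike. Pou5f1, which encodes Oct4, measured 10.61, 11.02 and 11.24 in the partial iPS arrays, against 9.70, 9.28 and 9.62 in the J1 arrays. Every partial iPS array was above every J1 array, and the difference was 1.43 ± 0.16 (limma adjusted p = 3.78e-06), or 2.69-fold. Sox2, which pairs with Oct4 on DNA, measured 4.34, 4.71 and 5.08 in the partial line, against 8.63, 8.78 and 9.06 in J1 cells. It fell by 4.11 on the log2 scale (SE 0.20, adjusted p = 1.28e-10). Klf4 measured 7.12, 7.09 and 6.61 in the partial line, against 6.66, 6.70 and 6.91 in J1 cells. These ranges overlapped, and its difference of 0.18 had a 95% interval from -0.15 to 0.52 (adjusted p = 0.491). Whether the probes of these genes read viral transcript, transcript of the cells' own gene, or both was not tested.

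Myc and Mycn, paralogs that drive growth and that ES cells both express, went opposite ways. Myc measured 8.08, 8.79 and 8.74 in the partial line, against 6.32, 4.85 and 5.41 in J1 cells, a difference of 3.01 ± 0.41 (adjusted p = 2.86e-05). Mycn measured 4.11, 4.61 and 4.67 in the partial line, against 8.02, 7.16 and 7.82 in J1 cells, a difference of -3.20 ± 0.26 (adjusted p = 1.04e-07). In neither gene did the lines overlap. The labels name no virus for Myc. Of the 10 measured genes of the Myc family and its partners, 4 rose and 3 fell, with a median difference of 0.07. Mxd4, an antagonist of Myc, rose by 0.91. Without partial replicate 2 or 3 the count of rises was 2, and without partial replicate 2, J1 replicate 2 or J1 replicate 3 the count of falls was 1.

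The core pluripotency genes fell together apart from Pou5f1. Of 19 measured genes, 17 fell, 1 rose and 1 was not called, with a median difference of -2.74 and medians per array of 4.56 to 4.94 in the partial line and 7.23 to 8.15 in J1 cells. The member not called was L1td1, an RNA-binding protein of ES cells, at 0.13 (adjusted p = 0.788; named after its value was seen). Nanog, the homeobox factor that stabilises the network, measured 4.17, 5.14 and 4.39 in the partial line, against 9.08, 9.0 and 9.18 in J1 cells. Its difference of -4.52 ± 0.23 (adjusted p = 1.51e-10) is 22.9-fold. The largest fall of any named gene was that of Dppa5a, an RNA-binding protein of ES and germ cells, which measured 5.12, 5.75 and 5.56 in the partial line, against 11.29, 11.27 and 11.50 in J1 cells. It was 58.8-fold lower (-5.88 ± 0.28, adjusted p = 9.93e-11). Trh, the gene for thyrotropin-releasing hormone, which is also highly expressed in mouse ES cells, measured 4.22, 4.41 and 4.26 in the partial line, against 10.15, 8.93 and 9.78 in J1 cells. The chromatin factor Utf1 (-4.52 ± 0.16) and Lin28a, which blocks the maturation of let-7 microRNAs (-2.76 ± 0.16), fell with them. No array of the partial line reached the J1 range in Lin28a.

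Naive pluripotency genes followed the same direction, with 17 of 18 measured members lower, 0 higher and a median of -1.41. Klf4 was the exception. Esrrb, an orphan nuclear receptor, measured 3.77, 4.06 and 3.85 in the partial line, against 7.83, 7.83 and 8.10 in J1 cells (-4.03 ± 0.17, adjusted p = 2.45e-11). Zfp42, also called Rex1, measured 3.47, 4.07 and 3.31 in the partial line, against 8.38, 7.42 and 8.22 in J1 cells (-4.39 ± 0.22, adjusted p = 2.00e-10). For both genes the partial iPS arrays were near background. Tfcp2l1, a target of LIF signalling, fell by 3.42 and Klf2, a zinc finger factor related to Klf4, fell by 2.42. Klf2 kept a level of 5.02 to 5.36 in the partial line. Dppa3, a maternal factor that guards methylation, differed by -0.70 (adjusted p = 0.0237). The call did not survive leaving out partial replicate 3 (adjusted p = 0.137), J1 replicate 2 (0.116) or J1 replicate 3 (0.0843).

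**Figure D2:**
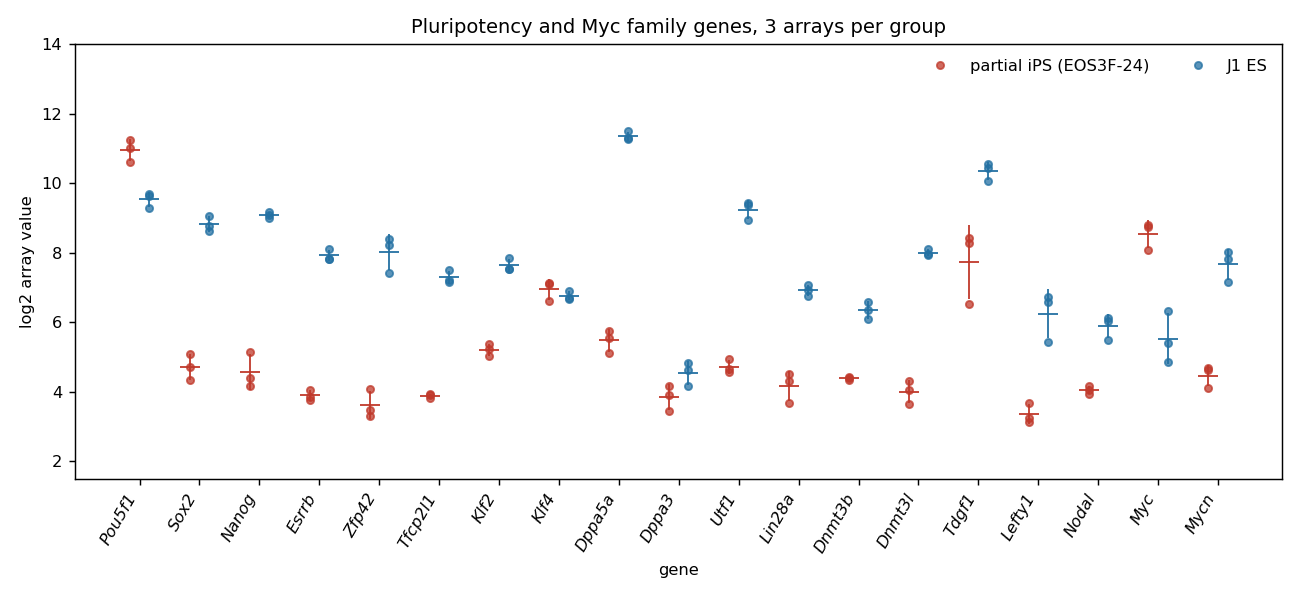
Log2 array values of pluripotency and Myc family genes, with 1 point per array, red for the partial iPS line and blue for J1 ES cells, and the mean ± SD of 3 arrays as a bar. Pou5f1 and Myc lie above the J1 arrays in the partial line, Klf4 overlaps them, and Sox2, Nanog, Esrrb, Zfp42, Dppa5a, Utf1 and Mycn lie below.

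Promoters of genes at both ends of the comparison are shown so that the letters searched can be seen in place. They are the reference windows of RefSeq on GRCm38.p6, from 250 bases before to 50 bases after a gene's start, in lower case with the matched letters in capitals. They were chosen because they hold these letters. The windows of Utf1, Esrrb, Tfcp2l1, Trh and Lin28a, which also fell, hold neither the octamer nor its first 7 letters. A window of Srgn (chr10:62507708-62508007, - strand), which is among the largest rises, holds the full octamer and is not shown. The windows of Krt14 and Tgm3, which rose, hold no AP-1 element. Of the promoters shown, the first 3 belong to pluripotency genes that fell, and their capitals mark the octamer ATGCAAAT that Oct4 recognises, or its first 7 letters, on either strand. Nanog (chr6:122707239-122707538, + strand) holds the 7 letters in the known composite Oct4 and Sox2 element of its proximal promoter, Sox2 (chr3:34649745-34650044, + strand) holds the 7 letters, and Zfp42 (chr8:43306960-43307259, - strand) holds all 8.
Nanog: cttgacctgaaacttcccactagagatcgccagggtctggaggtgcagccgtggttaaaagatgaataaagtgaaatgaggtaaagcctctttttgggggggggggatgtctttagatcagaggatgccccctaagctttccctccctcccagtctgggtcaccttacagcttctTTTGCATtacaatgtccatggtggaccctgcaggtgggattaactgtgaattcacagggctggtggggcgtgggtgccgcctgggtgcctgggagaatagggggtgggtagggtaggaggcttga
Sox2: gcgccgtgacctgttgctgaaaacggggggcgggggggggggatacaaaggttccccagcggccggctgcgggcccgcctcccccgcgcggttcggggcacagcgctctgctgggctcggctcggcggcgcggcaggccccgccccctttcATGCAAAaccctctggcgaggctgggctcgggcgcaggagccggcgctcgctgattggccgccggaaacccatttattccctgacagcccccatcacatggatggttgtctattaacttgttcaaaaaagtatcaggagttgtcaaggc
Zfp42: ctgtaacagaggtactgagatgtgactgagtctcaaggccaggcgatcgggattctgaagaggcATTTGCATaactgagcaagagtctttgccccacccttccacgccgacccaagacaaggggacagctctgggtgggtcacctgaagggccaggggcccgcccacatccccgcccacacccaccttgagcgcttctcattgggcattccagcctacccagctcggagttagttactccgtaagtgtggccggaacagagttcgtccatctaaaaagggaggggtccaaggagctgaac
The other promoters belong to the keratinocyte genes Krtdap (chr7:30787655-30787954, + strand) and Krt13 (chr11:100120528-100120827, - strand), which rose, and their capitals mark the AP-1 element TGANTCA on either strand.
Krtdap: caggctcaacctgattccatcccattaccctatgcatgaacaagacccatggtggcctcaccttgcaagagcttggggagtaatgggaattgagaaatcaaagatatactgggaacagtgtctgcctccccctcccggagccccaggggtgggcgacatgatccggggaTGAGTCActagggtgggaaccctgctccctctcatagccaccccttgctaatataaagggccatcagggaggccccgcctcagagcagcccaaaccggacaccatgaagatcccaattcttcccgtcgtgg
Krt13: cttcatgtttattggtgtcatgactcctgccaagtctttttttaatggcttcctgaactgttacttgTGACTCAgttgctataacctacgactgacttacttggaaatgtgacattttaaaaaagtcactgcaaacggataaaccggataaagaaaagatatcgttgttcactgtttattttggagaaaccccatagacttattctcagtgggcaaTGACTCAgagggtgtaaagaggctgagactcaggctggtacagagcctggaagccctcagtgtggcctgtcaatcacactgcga
A promoter was matched for 476 of the 631 genes that rose at least 2-fold, for 342 of the 462 that fell and for 15562 of all genes. The shares below are percents of these genes with the letters in at least 1 promoter window, so genes with several windows had more chances. The AP-1 element stood in 10.5% of the genes that rose and 4.68% of those that fell, against 8.06% of all genes with a promoter. The E-box CACGTG, which Myc proteins recognise, stood in 11.1% of the genes that rose and 16.1% of those that fell, against 9.52% of all. The octamer was found in 2.52% of the genes that rose and 3.22% of those that fell, against 1.90% of all. Its first 7 letters, a search added after the data were seen, stood in 6.30%, 6.43% and 4.81% in the same order. TCAAGGTCA, which Esrrb recognises, stood in 0.42%, 0.292% and 0.347%. The promoters of genes that rose and fell were also richer in GC than all promoters, with median GC contents of 61.3%, 60.4% and 57.5% in that order. These shares are a description of letters and carry no test.

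Genes for several signals that ES cells secrete were lower in the partial line. Nodal and its relatives of the TGF-beta family are secreted by ES cells and act through Smad proteins with the co-receptor Tdgf1, while the Lefty proteins inhibit them. Of 17 measured genes of this pathway, 8 fell and 2 rose (4 with a replicate block, and 1 without partial replicate 1, partial replicate 2 or J1 replicate 2), with a median of -0.34. Nodal measured 4.16, 4.04 and 3.93 in the partial line, against 6.04, 5.49 and 6.11 in J1 cells (-1.84 ± 0.16, adjusted p = 1.82e-07). Among the inhibitors, Lefty2 measured 3.30, 3.95 and 3.77 in the partial line, against 7.74, 6.27 and 7.35 in J1 cells (-3.44 ± 0.27, adjusted p = 5.38e-08), and Lefty1 fell by 2.89. The ligand Gdf3 fell by 2.74. None of these 4 genes overlapped between the lines. Furin, a protease that matures these ligands, rose by 0.73.

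Genes of the FGF and ERK pathway split, with 4 of 19 lower and 2 higher, against 9.65% and 13.3% of all genes. Fgf4, the main FGF ligand of ES cells, measured 5.50, 5.65 and 5.56 in the partial line, against 6.59, 7.23 and 7.16 in J1 cells (-1.42 ± 0.22, adjusted p = 0.000101). The feedback inhibitor Spry4 fell by 1.78. The ERK phosphatase Dusp4 rose by 1.92 (SE 0.16, adjusted p = 9.72e-08) and the immediate early gene Fos rose by 1.15. The phosphatase gene Dusp6 differed by -0.33 (adjusted p = 0.418). Spry4 averaged 5.96 after 2i conversion, 5.98 in EOS3F-28 and 6.48 in EOS3F-29, against 7.08 in J1 cells and 5.30 in the partial line. Dusp4 averaged 5.70, 5.88 and 6.28 in the same order, against 4.92 in J1 cells and 6.84 in the partial line. The direction of these differences from J1 cells was thus not particular to the partial line. LIF pathway genes numbered 6 higher and 4 lower of 14. The LIF receptor gene Lifr measured 5.31, 5.26 and 5.42 in the partial line, against 6.25, 6.26 and 6.31 in J1 cells (-0.95 ± 0.12, adjusted p = 1.24e-05). Lifr averaged 5.56 after 2i conversion, 5.20 in EOS3F-28 and 5.61 in EOS3F-29. Its level below J1 cells was thus not particular to the partial line. Osmr, the receptor for the related cytokine oncostatin M, which fibroblasts carry, rose by 2.02 ± 0.43 (adjusted p = 0.00222) and stood at 7.5 in MEFs. Of the STAT3 targets, Socs3 fell by 1.04 and Pim1 by 1.08, while Bcl3 rose by 0.81. A second probe set of Socs3 gave -0.44 (adjusted p = 0.049). At its brightest probe set, Socs3 averaged 6.2 after 2i conversion, 5.7 in EOS3F-28 and 6.2 in EOS3F-29, against 6.8 in J1 cells. Pim1, at 7.3, 6.7 and 7.0 in the same order, lay on both sides of its J1 mean of 7.1.

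In the BMP pathway, whose Id targets help to hold ES cells undifferentiated, 4 of 17 genes rose and 2 fell. Over all genes 13.3% rose and 9.65% fell, so the count of falls is near that share. The ligand gene Bmp4 measured 4.41, 4.41 and 4.2 in the partial line, against 6.38, 5.78 and 6.14 in J1 cells (-1.76 ± 0.27, adjusted p = 0.000125). Id1 nevertheless measured 6.94, 7.0 and 7.39 in the partial line, against 5.95, 5.21 and 5.44 in J1 cells (1.58 ± 0.24, adjusted p = 8.56e-05). The receptor gene Bmpr2 rose by 0.98 and the transducer Smad5 by 0.77. Of 17 Wnt pathway genes, 5 fell and 2 rose (3 fell without partial replicate 1, partial replicate 2 or J1 replicate 3). Axin2, a common readout of the pathway, fell by 0.51 (adjusted p = 0.0023), and Tcf7l2, one of its DNA-binding partners, rose by 0.90. Of 13 genes of the primed epiblast, the state that follows naive pluripotency, 7 fell and 0 rose (4 fell without partial replicate 2). The homeobox factor Otx2 fell by 2.10 and the tight junction gene Cldn6 by 2.32.

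Keratinocyte genes rose in the partial line. Of 27 measured genes of stratified epithelium, 11 rose and 0 fell, 10 of them by at least 2-fold (with a replicate block 2 fell, and without J1 replicate 1, 1 fell). Krtdap, a protein of keratinocyte differentiation, measured 8.35, 9.02 and 8.81 in the partial line, against 3.02, 3.36 and 3.37 in J1 cells, which is 44.4-fold against a J1 level near background (5.47 ± 0.18, adjusted p = 1.05e-12). The keratin gene Krt13 measured 8.05, 8.82 and 9.53 in the partial line, against 3.90, 3.83 and 3.72 in J1 cells (4.98 ± 0.24, adjusted p = 9.21e-11). Krt14, a keratin of basal cells, rose by 4.08 ± 0.51. Its SE is pooled over all groups, and the MEF arrays read 4.10, 7.10 and 4.18. Ehf, an epithelial ETS factor, rose by 3.92. These 4 genes are among the 15 largest rises, for which no overlap of arrays was a condition. Outside the list, Tgm3, a transglutaminase that cross-links the skin surface, rose by 3.65. The other 16 members were not called. Krt5, the usual partner of Krt14, stood at 3.64 to 3.69 in the partial line and 3.45 to 3.63 in J1 cells. Trp63, the master factor of the lineage, stood at 3.69 to 3.90 in the partial line and 3.66 to 3.77 in J1 cells (difference 0.10, adjusted p = 0.574). Both were near background, and the defining marker Sfn was not called (0.64, adjusted p = 0.117). The defining markers of keratinocytes were therefore present only in part.

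Simple epithelial genes mostly fell, with 16 of 24 lower and 1 higher and a median of -0.88. Epcam, an adhesion protein of epithelia and ES cells, measured 3.62, 4.42 and 4.53 in the partial line, against 6.49, 6.83 and 6.94 in J1 cells (-2.56 ± 0.28, adjusted p = 2.66e-06). Cdh1, which encodes E-cadherin, measured 7.05, 7.19 and 7.15 in the partial line, against 8.06, 8.26 and 8.41 in J1 cells (-1.11 ± 0.19, adjusted p = 0.000288). Cdh1 thus stood well above background in both lines, and in MEFs it averaged 4.30. Cdh1 averaged 7.62 after 2i conversion, 7.28 in EOS3F-28 and 7.46 in EOS3F-29. Its level below J1 cells was thus not particular to the partial line. Epcam averaged 7.78, 7.35 and 7.56 in the same order, above its J1 mean of 6.75. Cldn4, a tight junction protein, fell by 2.68. The member that rose was Krt19, a keratin of simple epithelia, at 7.09, 9.27 and 9.56 in the partial line, against 4.40, 6.23 and 5.98 in J1 cells (3.11 ± 0.70, adjusted p = 0.00302). Replicate 1 had the lowest Krt19 value on each side. Krt8 was not called (0.17, adjusted p = 0.698). Its partner Krt18 was called at -0.71 and lost the call without J1 replicate 2 (adjusted p = 0.135), J1 replicate 3 (0.117) or partial replicates 1, 2 or 3 (0.0509, 0.0788 and 0.0936).

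Genes of mesenchymal cells and of fibroblasts gave different counts under different models. Of 18 regulators of the mesenchymal state, 3 rose and 0 fell, with a median of 0.52. Runx1, a transcription factor of blood and mesenchyme, rose by 1.55 and N-cadherin, Cdh2, by 0.93. Zeb1, a repressor of epithelial genes, rose by 0.90 but lost the call without partial replicate 1 (adjusted p = 0.0618) or J1 replicate 2 (0.0673). With a replicate block 14 of the 18 rose, without J1 replicate 1, 7 rose, and after cyclic loess 5 rose and 1 fell. Of 22 fibroblast and feeder genes, 0 were called either way, with a median of 0.26, or 7 higher with a replicate block and 2 higher without J1 replicate 1. The mean over the 22 genes was 7.69, 6.72 and 6.42 in the partial iPS arrays and 7.14, 6.07 and 6.46 in the J1 arrays, so replicate 1 was the highest on each side. Thy1, a surface marker of fibroblasts, measured 7.15, 6.37 and 5.86 in the partial line, against 6.73, 6.2 and 6.36 in J1 cells (0.03, adjusted p = 0.966), and in MEFs it averaged 8.36. Col1a2, a collagen chain, differed by 0.27 (SE 0.53, adjusted p = 0.791) with overlapping arrays. Both lines were grown on feeders, and the share of this signal that came from feeder cells was not tested.

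Several chromatin genes that are abundant in ES cells were lower in the partial line. Of 14 genes of DNA methylation, 8 fell and 3 rose, with a median of -0.78. Dnmt3l, the cofactor of the de novo methyltransferases, measured 3.64, 4.30 and 4.06 in the partial line, against 7.97, 7.92 and 8.10 in J1 cells (-4.0 ± 0.18, adjusted p = 6.62e-11). Dnmt3b, one of those methyltransferases, fell by 1.95. Tet1, which oxidises methylated cytosine, measured 5.53, 5.36 and 5.96 in the partial line, against 8.18, 8.16 and 8.39 in J1 cells (-2.63 ± 0.19, adjusted p = 2.85e-08). Other probe sets of Tet1 gave -2.88 and -2.79. No array overlapped between the lines in Dnmt3b or Tet1. Mbd2, a reader of methylated DNA, rose by 1.42. Tet3 rose by 0.75 at its brightest probe set, and a second gave 0.11 (adjusted p = 0.719).

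Among 20 polycomb genes, 9 fell and 2 rose, with a median of -0.45. Jarid2, a partner of PRC2 that is abundant in ES cells, measured 6.16, 6.45 and 6.50 in the partial line, against 8.46, 8.06 and 8.34 in J1 cells (-1.92 ± 0.15, adjusted p = 4.52e-08). Mtf2, another PRC2 partner, fell by 1.61 and Cbx7, the main chromobox protein of ES cell PRC1, by 1.74. Bmi1, a PRC1 subunit of somatic stem cells, rose by 1.34 and averaged 6.98 in MEFs. In the BAF remodelling complex, 5 of 20 genes rose and 3 fell, against 13.3% and 9.65% of all genes. The ATPase gene Smarca2 measured 6.22, 6.58 and 6.41 in the partial line, against 4.49, 4.13 and 4.07 in J1 cells (2.18 ± 0.20, adjusted p = 4.52e-07). Smarcd1 fell by 1.09 and Smarcc2, a subunit of the somatic form of the complex, rose by 0.76. The other falls were Actl6a at -0.89 and Smarcd3 at -0.59 (limma adjusted p = 0.000656). Smarcd3 averaged 4.03 in the partial line, 4.62 in J1 cells and 4.80 in MEFs. H3K9 methylation genes numbered 4 lower and 0 higher of 14 (2 lower without partial replicate 1 or J1 replicate 2). Cbx1, a heterochromatin protein, fell by 0.73.

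Germline and meiosis genes fell as well, with 17 of 27 lower, 0 higher and a median of -0.88 (1 rose with a replicate block or without partial replicate 3). Medians per array over the list were low on both sides, 3.28 to 3.54 in the partial line and 4.19 to 4.55 in J1 cells. Tdrd12, a protein of the piRNA pathway, measured 3.63, 3.66 and 3.53 in the partial line, against 7.18, 7.16 and 7.29 in J1 cells (-3.60 ± 0.25, adjusted p = 1.04e-08). Syce2, of the synaptonemal complex, fell by 3.55 and the meiotic cohesin gene Stag3 by 2.40. Imprinted genes numbered 7 lower and 2 higher of 18 (4 higher with a replicate block), against 9.65% and 13.3% of all genes. Phlda2, a growth suppressor of the placenta, fell by 2.57, Mest by 2.25 and the retrotransposon-derived Peg10 by 2.67. Grb10, an adaptor that restrains insulin signalling, rose by 1.48 and averaged 9.16 in MEFs.

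Transport of glucose and amino acids differed at single genes. Slc2a3, a high-affinity glucose transporter of the early embryo, measured 6.02, 6.76 and 6.47 in the partial line, against 10.05, 10.99 and 10.94 in J1 cells (-4.24 ± 0.38, adjusted p = 2.60e-07). The widespread transporter gene Slc2a1 differed by -1.13 (adjusted p = 0.00901), a call lost without partial replicate 1 (adjusted p = 0.0599). Of 18 glycolysis genes, 7 fell and 0 rose (1 rose without partial replicate 1). Pdk1, which limits entry of pyruvate into mitochondria, fell by 1.16. Among 17 amino acid transporter genes, 5 rose and 4 fell, and the related glutamine and neutral amino acid carriers Slc38a5 and Slc38a4 changed in opposite directions. Slc38a5 measured 10.47, 10.48 and 10.79 in the partial line, against 4.55, 5.16 and 4.56 in J1 cells, which is 56.6-fold (5.82 ± 0.21, adjusted p = 2.79e-12). Slc38a4 measured 3.98, 4.2 and 3.74 in the partial line, against 8.01, 8.48 and 8.18 in J1 cells (-4.25 ± 0.41, adjusted p = 5.64e-07). Slc7a11, the cystine carrier, rose by 2.78, and the arginine and lysine carrier gene Slc7a3 fell by 2.61.

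Of 29 cell cycle genes, 13 fell and 4 rose, with a median of -0.54. The transcription factor gene Mybl2 measured 6.39, 6.37 and 6.32 in the partial line, against 8.38, 8.21 and 8.44 in J1 cells (-1.99 ± 0.20, adjusted p = 1.00e-06). Mcm5, of the replicative helicase, fell by 1.33 and the G1 cyclin gene Ccne1 by 1.28. Mcm5 averaged 8.3 after 2i conversion, 7.5 in EOS3F-28 and 7.7 in EOS3F-29, against 8.5 in J1 cells and 7.2 in the partial line. Ccne1, at 8.9, 8.1 and 8.6 in the same order, lay on both sides of its J1 mean of 8.4. Ccnd1, which encodes cyclin D1, was called at 1.25 (adjusted p = 0.029), and its call was lost with a trended robust prior (0.0565) and without any 1 of 5 arrays: partial replicates 1, 2 and 3 (0.0787, 0.0791 and 0.054), J1 replicate 2 (0.169) or J1 replicate 3 (0.0808). The count of rises was 1 without partial replicate 2 and 2 without partial replicate 1, J1 replicate 2 or J1 replicate 3. Genes of p53 and the CDK inhibitors numbered 2 higher and 2 lower of 11 (6 higher with a replicate block, and 1 higher without any 1 of partial replicates 1, 2 and 3 or J1 replicates 2 and 3). Over all genes 13.3% rose and 9.65% fell. The inhibitor gene Cdkn1c fell by 1.05. Cdkn2a, the Ink4a/Arf barrier to reprogramming, differed by 0.58 (adjusted p = 0.0719), or 0.0049 with a replicate block.

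**Figure D3:**
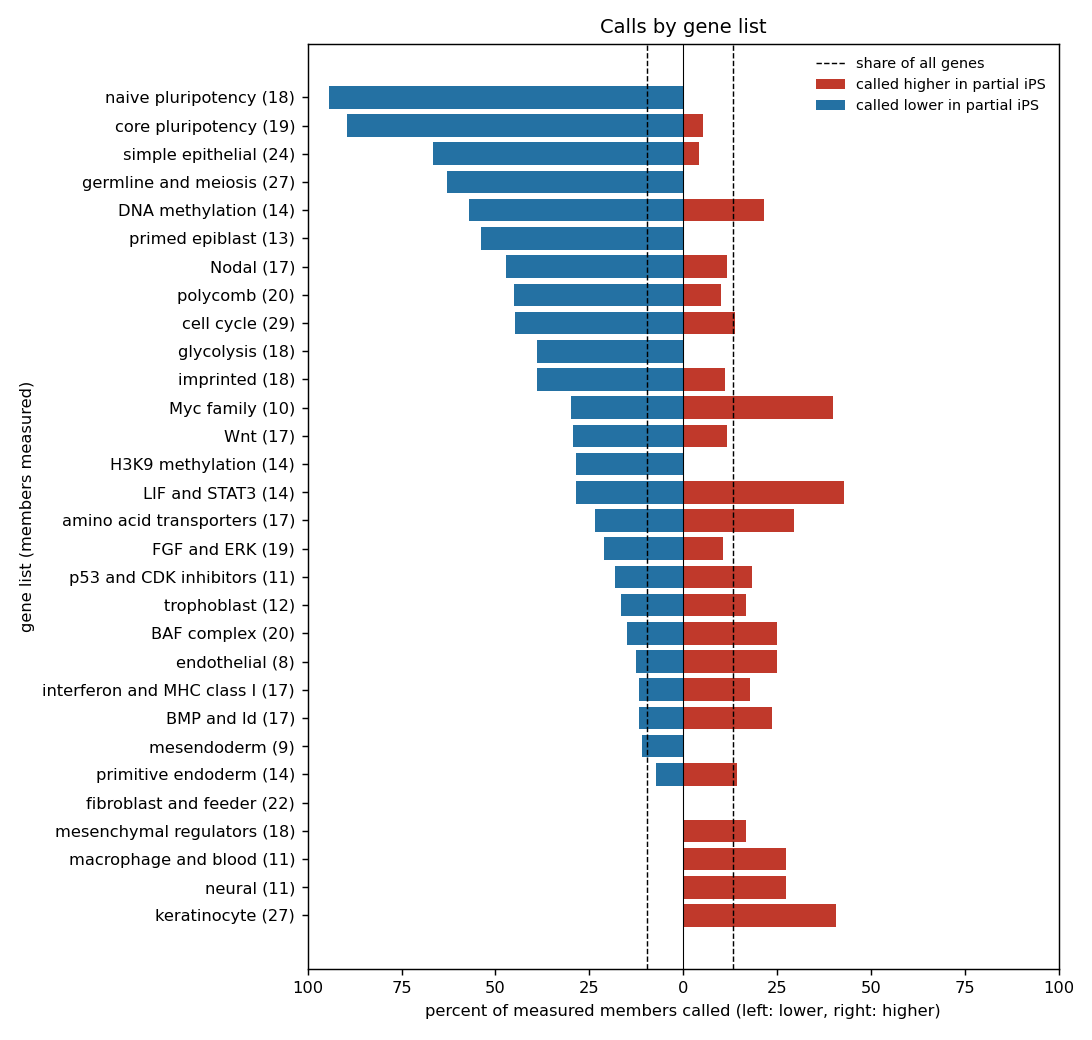
Percent of the measured members of each gene list called higher (red, right of 0) or lower (blue, left of 0) in partial iPS cells than in J1 cells, with the number measured in brackets and dashed lines at the shares of all genes, 13.3% and 9.65%. The naive and core pluripotency lists reach furthest to the left, and the keratinocyte list is red with no blue.

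Markers of other lineages gave small counts from short lists, to be read beside the 13.3% of all genes that rose and the 9.65% that fell. In the macrophage and blood list 3 of 11 genes rose (with a replicate block 1 fell). Srgn, a secretory granule proteoglycan, measured 7.54, 9.52 and 9.22 in the partial line, against 3.60, 3.78 and 3.55 in J1 cells (5.12 ± 0.39, adjusted p = 3.56e-08), and Laptm5, a lysosomal protein of blood cells, rose by 1.47. The defining markers Ptprc and Csf1r were near background in both lines, at 3.36 to 3.80 in the partial line and 3.27 to 3.81 in J1 cells over both genes, and Cd68 differed by -0.71 (adjusted p = 0.316). In the endothelial list 2 of 8 genes rose and 1 fell (2 fell without J1 replicate 1 or after cyclic loess). Tek, the angiopoietin receptor gene, rose by 1.99 and Esam by 1.60, while Cdh5 and Kdr stood at 3.28 to 3.5 in the partial line and 3.20 to 3.46 in J1 cells. Of 11 neural genes 3 rose, led by Stmn2, a regulator of microtubules, at 1.84, and Pax6 stood at 3.66 to 3.86 in the partial line and 3.73 to 3.96 in J1 cells.

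Primitive endoderm genes numbered 2 higher and 1 lower of 14, with Gata6 at 5.26, 5.46 and 5.61 in the partial line, against 4.31, 4.32 and 4.46 in J1 cells (1.08 ± 0.14, adjusted p = 1.65e-05). Gata4 and Sox17, which define the lineage, were not called. Dab2, an endocytic adaptor, rose by 2.47 at its brightest probe set, and a second probe set gave 0.22 (adjusted p = 0.237). Of 12 trophoblast genes 2 rose and 2 fell (4 rose with a replicate block). Gata3 rose by 1.00, Cdx2 rose by 0.68 and Eomes fell by 0.50, and no array of either line exceeded 5.22 in these 3 genes. Of 9 mesendoderm genes 1 fell, and of 4 genes of the 2-cell-like state none was called. In the interferon and MHC list 3 of 17 rose and 2 fell (6 rose with a replicate block). Ifitm1, which ES cells express, fell by 2.30 and its relative Ifitm3 rose by 1.45.

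Hox genes, which pattern the body axis and are silenced by polycomb in ES cells, were raised by small amounts. Of 37 measured, 21 rose and 0 fell (56.8%, against 22.9% of all genes), with a median difference of 0.39. Rises came from all 4 clusters, 5 of 10 genes in Hoxa, 5 of 9 in Hoxb, 6 of 9 in Hoxc and 5 of 9 in Hoxd. The largest was Hoxc8, at 5.93, 6.24 and 5.48 in the partial line, against 4.75, 4.50 and 4.26 in J1 cells (1.38 ± 0.20, adjusted p = 6.35e-05), and it averaged 5.92 in MEFs. Hoxc6 rose by 1.26 and Hoxc9 by 1.08 (all 3 named after their values were seen). With genes of a mean under 5 left out, 2 of the rises were still tested and called. As a family that these cells are not known to use, 1027 olfactory receptor genes (Olfr) gave 1 rise and 10 falls, 1.07% of them. Keratin genes (Krt) numbered 10 higher and 1 lower of 52. In both directions together 21.2% were called, near the 22.9% of all genes. Their calls were mostly rises, whereas all genes split into 13.3% higher and 9.65% lower.

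Genes outside the lists also led the comparison. The largest difference was at a probe set annotated to the potassium channel gene Kcnma1, at 8.17, 9.01 and 9.49 in the partial line, against 2.70, 2.66 and 2.87 in J1 cells (6.15 ± 0.34). Its 10 nearest named probe sets by number all belong to genes of chromosome 8, whereas Kcnma1 lies on chromosome 14, and the other probe set of Kcnma1 gave -0.17 (adjusted p = 0.348). The value is therefore given for the probe set and not for the channel gene. Crybg1 rose by 4.61 at its brightest probe set, and its other probe set gave -0.12 (adjusted p = 0.733). Among the other large rises, St3gal6, a sialyltransferase gene, measured 8.08, 8.33 and 8.45 in the partial line, against 3.95, 3.80 and 3.96 in J1 cells (4.39 ± 0.11, adjusted p = 2.47e-14). Gcnt3, a mucin-type branching enzyme, rose by 4.37, the guanine deaminase gene Gda by 4.23, Cyp2b23 by 4.09, the mesothelial surface protein gene Msln by 3.73 and Rassf9 by 3.73. Bex1, an X-linked adaptor, fell by 4.57, Triml2 by 3.83, the zinc finger gene Zfp980 by 3.79 and Gldc, which encodes glycine decarboxylase, by 3.63.

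The same 30 genes placed the lines differently among the other groups. For the 15 largest rises, the median of the group means was 8.09 in the partial line, 3.73 after 2i conversion, 6.0 in EOS3F-28, 4.32 in EOS3F-29, 3.57 in MEFs and 3.64 in J1 cells. For the 15 largest falls, it was 3.97 in the partial line, 8.23 after 2i conversion, 7.95 in EOS3F-28, 8.25 in EOS3F-29, 3.51 in MEFs and 8.22 in J1 cells. Slc38a5 stood at 7.65 and Krtdap at 6.82 in EOS3F-28, between the partial and the J1 level, whereas Kcnma1 stood there at 3.01, Cyp2b23 at 3.60 and Ehf at 4.26. Among the falls, Slc38a4 averaged 7.04 in MEFs. Since the genes were chosen by the partial and J1 arrays, these levels are a description.

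**Figure D4:**
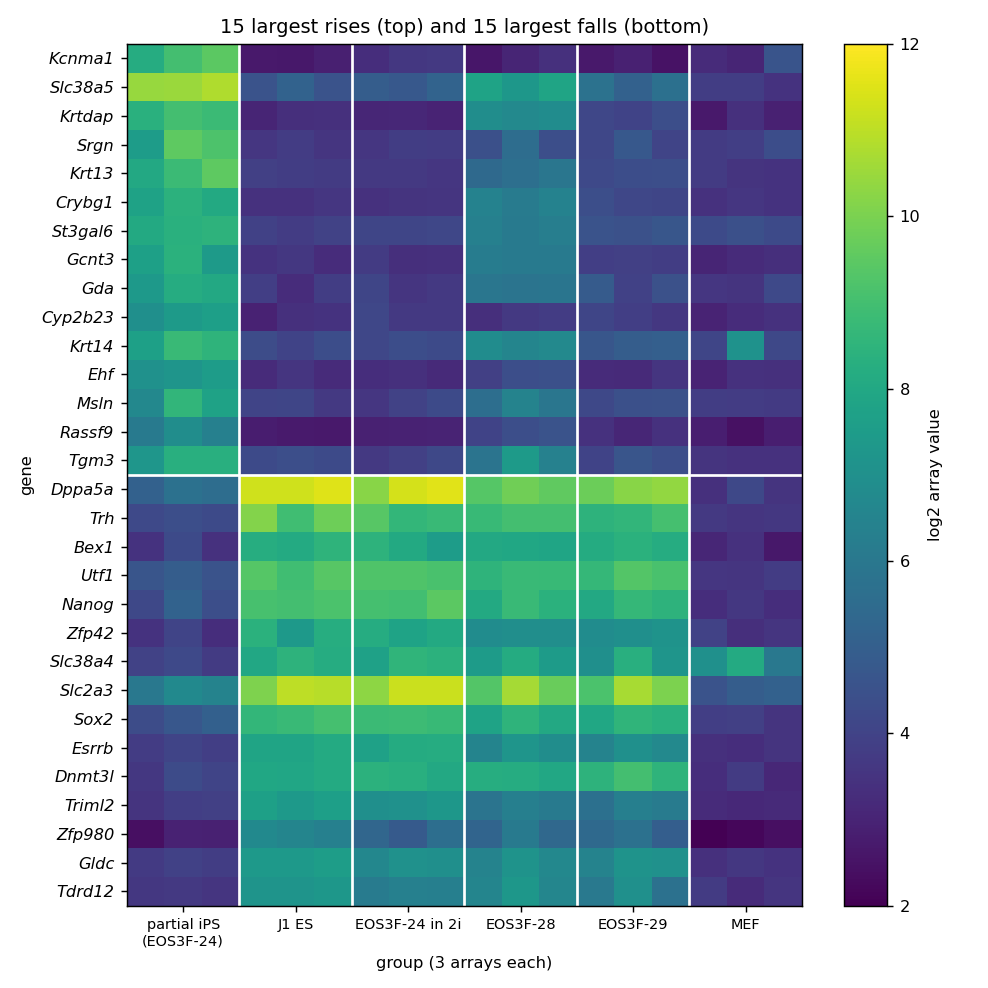
Log2 array values of the 15 largest rises (upper rows) and the 15 largest falls (lower rows) of the comparison in all 18 arrays, 3 columns per group, on a colour scale from 2 to 12. Most rises are bright in the partial line and of middle brightness in EOS3F-28, unlike Kcnma1, Cyp2b23 and Ehf, and most falls are dark in the partial line and in MEFs, apart from Slc38a4 in MEFs and Slc2a3 in the partial line; the top row is the doubtful probe set annotated to Kcnma1.

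Of 4 measured sex-linked genes 1 rose and 2 fell. Xist, the RNA that coats an inactive X chromosome, measured 6.82, 7.15 and 7.17 in the partial line, against 4.85, 4.56 and 4.52 in J1 cells (2.41 ± 0.23, adjusted p = 5.64e-07). The Y-linked gene Eif2s3y measured 4.27, 3.97 and 3.82 in the partial line, against 6.37, 6.49 and 6.22 in J1 cells (-2.34 ± 0.18, adjusted p = 5.41e-08), and Uty, also on the Y, fell by 1.26. The Y-linked gene Kdm5d stood near background, at 3.67, 3.22 and 3.18 in the partial line, against 3.18, 3.04 and 3.12 in J1 cells, and was not called (0.24, adjusted p = 0.239). Eif2s3y averaged 3.65 in the 2i converted cells, 6.13 in EOS3F-28, 5.66 in EOS3F-29 and 5.98 in MEFs. Over 127 X-linked genes with a mean of at least 6, the median difference was 0.17. From the partial line to its 2i converted cells, Xist changed by -2.16 and Eif2s3y by -0.38. Relative to J1 cells, Xist differed by 0.24 in the 2i converted cells, 0.68 over EOS3F-28 and EOS3F-29, and 2.26 in MEFs. Xist and Eif2s3y thus did not move together over the groups. Between the partial and J1 lines alone, the sex of the cells and their reprogramming state cannot be told apart, and the cause was not tested.

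Genes of chromosome 8 were lower as a whole. Over its 213 genes with a mean of at least 6, the median difference was -0.30, with -0.32, -0.29 and -0.26 in the 3 partial iPS arrays, while the J1 arrays lay at 0.05, -0.10 and 0.04 around their own mean. Of these genes 72.8% lay below 0, against 42.5% of 3717 genes elsewhere, and 84 fell while 10 rose. The other 18 autosomes and the X had medians from -0.03 (chromosome 11) to 0.20 (chromosome 6). With a minimum mean of 5 or 7, after cyclic loess and without any 1 array, the median of chromosome 8 stayed between -0.37 and -0.24. Set against the same J1 mean, the group medians of chromosome 8 were -0.10 after 2i conversion, -0.46 in EOS3F-28, -0.44 in EOS3F-29 and -0.42 in MEFs. J1 cells thus had the highest chromosome 8 median of the 6 groups. Copy number was not measured. Zfp42, Triml2, Syce2 and Klf2, which fell, and Dusp4, which rose, lie on chromosome 8. What part of their changes goes with the chromosome was not tested.

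**Figure D5:**
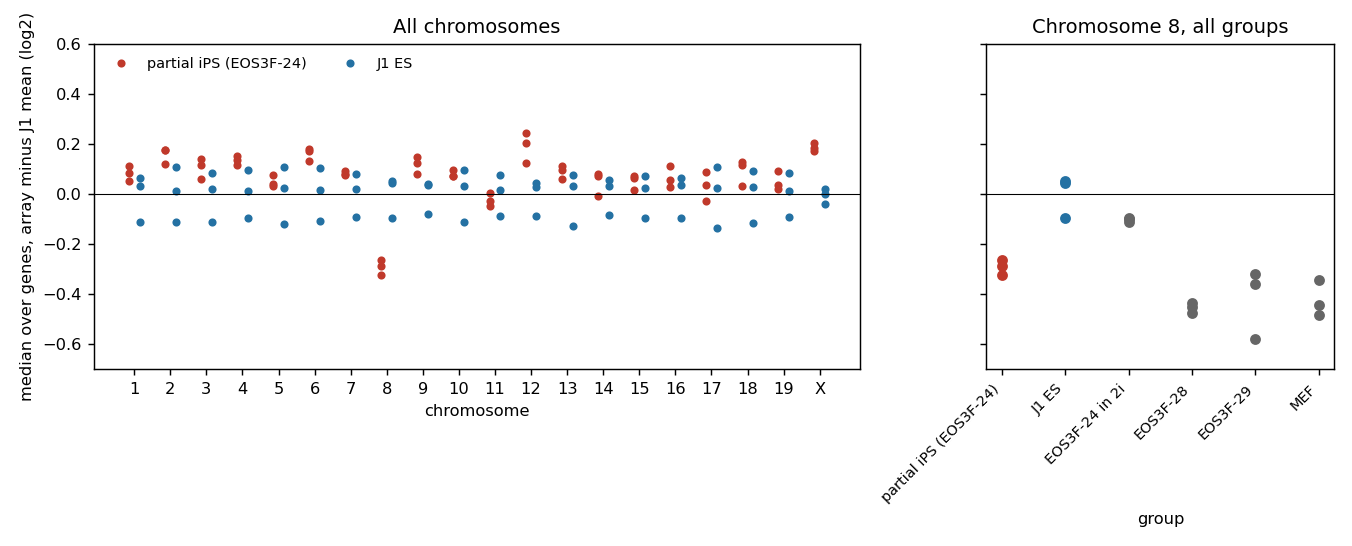
Left, median over genes of each array minus the mean of the J1 arrays (log2) for each chromosome, with 1 point per array, red for the partial iPS line and blue for J1 ES cells. Right, the same for chromosome 8 in all 6 groups; the partial iPS arrays lie at -0.32 to -0.26, EOS3F-28, EOS3F-29 and MEFs at or below -0.32, 2i converted cells near -0.10 and J1 cells around 0.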

How the data were processed

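Expression was measured on 18 arrays, and the authors deposited log2 values for each probe set; per the submitters' processing notes, the tool was RMA. RMA corrects background, equalises the arrays' distributions and summarises probes, which removes a shift shared by most genes and compresses differences near background. The genome build, annotation and RMA version were not given in the sources used here. GEO's platform annotation gave 1 symbol for 21640 of 34760 probe sets, several for 1321 and none for 11799. For the 954 genes with more than 1 probe set, the one with the highest mean was used. Using limma 3.58.1 (lmFit, eBayes; R 4.3.3), the 18 arrays were modelled together with a mean for each of the 6 groups and Benjamini-Hochberg adjustment over 19937 genes; the code was tested on simulated data. Groups came from the sample titles. Of 546 genes in 33 lists, 506 were measured. The comparison, the members and the lists were chosen with earlier results of these data known.

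Genes named are the 15 largest rises and falls among called genes with a 2-fold change and no overlap of arrays (clone-named genes left out), the top 3 called in each direction from every list, and a fixed set of pluripotency, signalling and lineage genes; the text prints a part of them. As a check of pairing, each array's deviation from its group mean was correlated over genes between equal-numbered arrays. The 3 pairs gave 0.21, 0.24 and 0.22, all over 0.1, so the numbers were taken as pairs on the evidence of the values; the labels state no pairing. This pairing entered through the replicate block alone. Alternatives were cyclic loess, centring on housekeeping genes, leaving out genes with a mean under 5, fitting only the 6 arrays, the replicate block, averaging probe sets, a trended robust prior and leaving out each array. Chromosome names and promoters came from RefSeq tables of GRCm38.p6.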

Additional observations from a re-analysis of the deposited data

Results flagged for a closer look

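The platform annotation used here names no gene for 11799 probe sets, and these lie outside the gene-level comparison. In the same model fitted to all probe sets, 654 of them were called (5.54%). Of these, 113 were at least 2-fold higher in the partial line than in J1 cells and 43 at least 2-fold lower, which is signal in data that the report did not use. Probe set 10420780 had the largest fall, at 4.24, 4.17 and 4.05 in the partial line, against 9.27, 8.62 and 9.16 in J1 cells (-4.86 ± 0.20). Probe set 10474520 followed at -4.78 ± 0.20. The largest rises were probe set 10452316, at 7.5, 8.86 and 8.37 in the partial line, against 4.99, 4.76 and 4.74 in J1 cells (3.42 ± 0.30), and probe set 10582549 at 3.25 ± 0.24. What these probe sets measure was not tested.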

How the results depend on the processing

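Of 158 named genes 150 were called, and 127 of these kept their call and direction under each of the 13 alternatives in which they were tested; the other 23 lost the call under at least 1, and none reversed. The count of called genes was 4571, and without 1 array it ranged from 3378 (without partial replicate 2) to 4589 (without J1 replicate 1). With the replicate block it was 5114, with 2990 higher and 2124 lower; apart from the counts and calls given beside the lists, the block ended no call of a named gene. After cyclic loess 2506 genes were higher and 2306 lower. With genes of a mean under 5 left out, fewer genes were tested and 2866 were called, with 1085 lower, 407 at least 2-fold higher and 287 at least 2-fold lower. List counts shrank in the same setting, to 2 rises of keratinocyte genes, 3 falls of germline genes and 7 falls of simple epithelial genes. The count of rises and falls at 2-fold without 1 array ranged from 567 to 741 and from 417 to 538. The share of genes with the octamer in a promoter moved to 6.30%, 6.43% and 4.81% with its first 7 letters, by construction. Low signal over background limits the dim genes, many of the Hox, keratin and germline genes among them, and 3 arrays per line limit the smaller changes. The number of list counts that moved by over 1.5 times under at least 1 alternative was 36 of 66, mostly counts of 5 or fewer.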

Other observations

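The genes of the glycine cleavage system were on no list and were looked up after the fall of Gldc (-3.63) was seen. They did not move together: Amt, which encodes the aminomethyltransferase, fell by 2.86, Gcsh, the carrier protein gene, was not called at -0.32 (limma adjusted p = 0.14), and Dld, whose product also serves other enzyme complexes, rose by 0.87. The genes that follow are outside the lists and the rule for named genes, and were picked after their values were seen. The calcitonin-receptor-like gene Calcrl rose by 3.01, the carbonic anhydrase gene Car2 by 3.02 and the tissue inhibitor gene Timp3 by 3.10. Igfbp2, an insulin-like growth factor binding protein, fell by 3.13. The basement membrane gene Nid2 fell by 3.12, while the laminin chain gene Lama3 rose by 2.93.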
